A study of Mus musculus with 6 samples.

Results

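The HoxC cluster is 1 of the 4 mammalian Hox clusters, and its 9 protein-coding genes, Hoxc4, Hoxc5, Hoxc6, Hoxc8, Hoxc9, Hoxc10, Hoxc11, Hoxc12 and Hoxc13, were followed here in mouse embryoid bodies (EBs) treated with retinoic acid (RA). The genes were taken by symbol, and all 9 were among the 19938 genes measured, each by 1 probe set that carries no other gene's name. The cells were those of R1, an established mouse embryonic stem (ES) cell line, plated as single cells at 35000 cells per ml in ES medium that lacked Lif, the factor that holds such cells in the pluripotent state. Day 0 is the day on which RA was added to EBs aged 4 days, at 2 μM, and the groups day 3 and day 4 had then been in RA for that number of days. Each group had 2 arrays (Affymetrix Mouse Gene 1.0 ST). All values are log2 intensities after Robust Multichip Average (RMA) normalization, so a difference of 1 is a doubling of the signal. No EBs of equal age kept free of RA were analysed here, so the time in culture and RA cannot be told apart in any comparison below.

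Hox genes encode homeodomain transcription factors that give cells of the embryo their position along the head to tail axis. Within a cluster they lie in the order in which they come on. Genes at the 3′ end, with low numbers, start early and act near the head, and genes at the 5′ end, with high numbers, start late and act towards the tail. Genes of the same number in different clusters are paralogues, copies of 1 ancestral gene. HoxC has no members for the first numbers, so its 3′ end starts with Hoxc4. RA binds nuclear receptors that sit at DNA elements near the 3′ ends of Hox clusters, and Cdx factors and growth factors act further along the cluster. In the spinal cord Hoxc4, Hoxc5, Hoxc6 and Hoxc8 mark brachial levels, Hoxc9 marks the thoracic level and Hoxc10 and Hoxc11 the lumbar and sacral levels, while Hoxc13 is also needed in hair follicles and nails.

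In the RefSeq annotation (GRCm38.p6), read from the 5′ end of the cluster, the order is Hoxc13, Hoxc12, Hoxc11, Hoxc10, Hoxc9, Hoxc8, Hoxc6, Hoxc5 and Hoxc4. The microRNA gene Mir196a-2 lies between Hoxc10 and Hoxc9, and Mir615 lies within Hoxc5. Both microRNAs are shown because they are part of the cluster and had probe sets of their own. Capitals mark the seed, bases 2 to 8, which pairs with target mRNAs, and miR-196a is known for targeting mRNAs of Hox genes.
mmu-miR-196a-5p, chr15:102973365-102973386, + strand: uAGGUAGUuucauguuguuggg
mmu-miR-615-3p, chr15:103014969-103014990, + strand: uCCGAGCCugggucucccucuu
Their seeds differ. The promoter of Hoxc4, the most 3′ member, is shown because RA receptors are known to act near this end of Hox clusters. It was the promoter of 1 of the 9 members in the RefSeq table used. The 250 bases before the listed start are given 5′ to 3′, and capitals mark the match to the RA receptor half-site AGGTCA, searched on both strands, which reads TGACCT here.
Hoxc4 promoter, chr15:103034145-103034394, + strand: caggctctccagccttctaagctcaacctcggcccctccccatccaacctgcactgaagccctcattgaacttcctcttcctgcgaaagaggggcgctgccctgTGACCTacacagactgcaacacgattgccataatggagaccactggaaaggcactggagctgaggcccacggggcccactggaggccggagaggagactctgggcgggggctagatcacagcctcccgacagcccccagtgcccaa
The match ends 140 bases before the listed start. A half-site of these letters was present in 16.3% of the 32851 promoters of the same length, counted over 250 bases before and 50 after each start, and 2 half-sites in direct repeat at a spacing of 2 or 5 bases were not found in this window. A match is a description of the letters and not a binding site.

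From day 0 to day 4 the cluster split along its length. The 5 genes of the 3′ part and the middle, Hoxc4, Hoxc5, Hoxc6, Hoxc8 and Hoxc9, rose by 2.17-fold to 38.6-fold, and the 4 genes of the 5′ part, Hoxc10 to Hoxc13, had lower means at day 4 than at day 0, by 1.29-fold to 1.52-fold. In the limma fit over all genes, 5 members were called higher, 3 lower and 1 neither, at an adjusted p of 0.05 or below. Of all genes tested, 25.9% were called higher and 25.6% lower in this comparison. The median log2 change was 1.12 over the 9 members and -0.00 over all genes. Fewer cells that express a gene and less of its RNA per cell cannot be told apart in RNA from whole EBs.

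**Figure D1:**
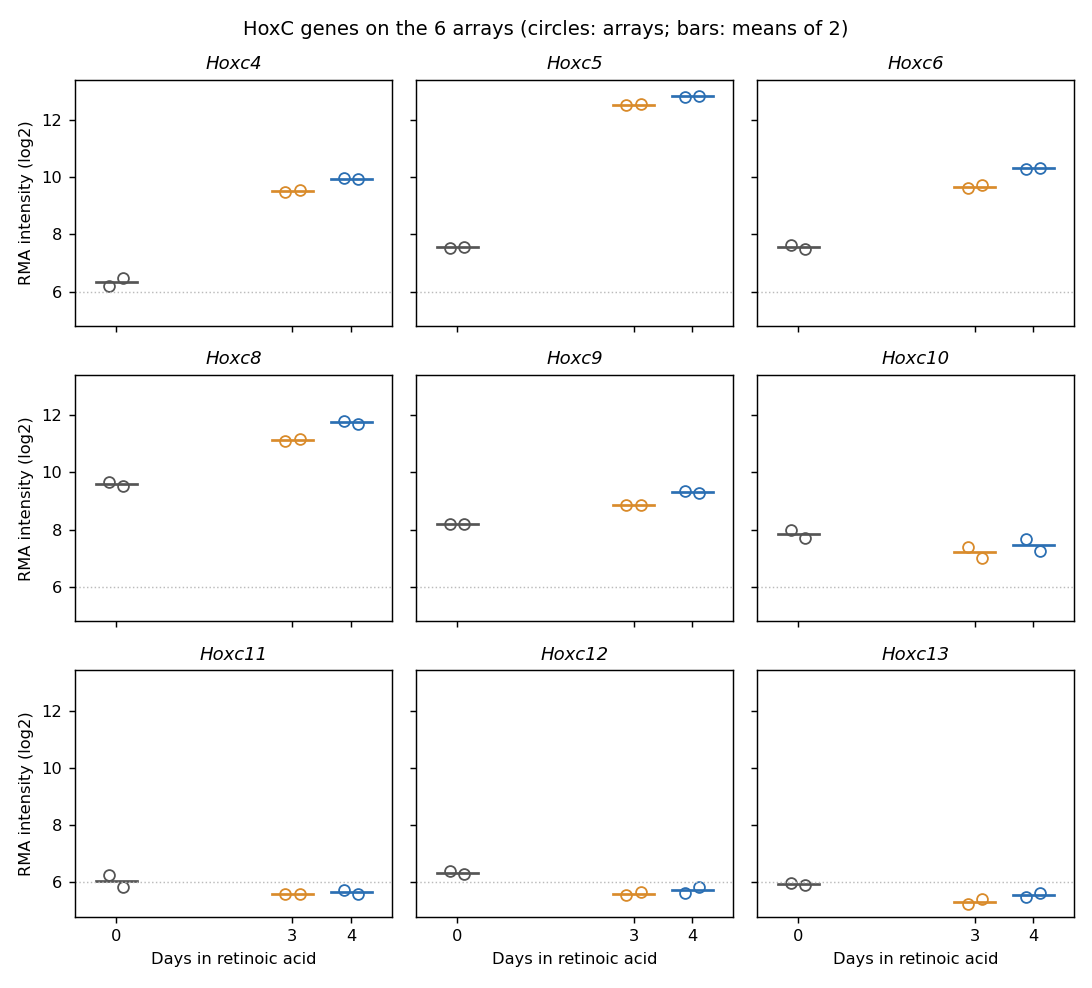
RMA log2 intensity (vertical axis) of each HoxC gene against days in RA (horizontal axis), with 1 circle per array, a bar at the mean of the 2 arrays of a day and a dotted line at 6, the lower mean used for dim genes. Hoxc5 went from 7.52 and 7.57 at day 0 to 12.80 and 12.83 at day 4, while Hoxc11, Hoxc12 and Hoxc13 lay below the line on all arrays of days 3 and 4.

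The 3′ genes are Hoxc4, Hoxc5 and Hoxc6. Hoxc4, a group 4 gene of the hindbrain to neck region, read 6.21 and 6.49 before RA, 9.50 and 9.55 after 3 days in RA and 9.95 and 9.95 after 4 days. The 3 days did not overlap, and the order was day 4, day 3, day 0, with the largest step before day 3. The rise to day 4 was 3.60 on the log2 scale (SE 0.09, 95% interval 3.39 to 3.81, adjusted p = 1.7e-07, limma), or 12.1-fold, and the gene stood 70th of 19938 by size of rise.

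Hoxc5, of the same neck and brachial region, read 7.52 and 7.57 before RA, 12.51 and 12.54 after 3 days in RA and 12.80 and 12.83 after 4 days. It had the largest rise of the cluster, 5.27 (SE 0.05, 95% interval 5.15 to 5.40, adjusted p = 1.1e-08, limma), which is 38.6-fold and 10th among all genes. Arrays of a day differed by far less than the days did.

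Hoxc6, which marks brachial motor neurons and the front of the trunk, read 7.62 and 7.50 before RA, 9.60 and 9.74 after 3 days in RA and 10.28 and 10.33 after 4 days. Its rise to day 4 was 2.75 (SE 0.07, 95% interval 2.58 to 2.91, adjusted p = 1.8e-07, limma), a 6.70-fold change. The groups again did not overlap, and more of this rise than of that of Hoxc5 came after day 3.

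The middle of the cluster holds Hoxc8 and Hoxc9. Hoxc8, a trunk gene that helps set the lower brachial motor pools, read 9.66 and 9.53 before RA, 11.09 and 11.18 after 3 days in RA and 11.79 and 11.71 after 4 days. The rise to day 4 was 2.15 (SE 0.07, 95% interval 1.99 to 2.31, adjusted p = 4.4e-07, limma). Both arrays of each later day lay above both of the day before.

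Hoxc9, which represses brachial Hox genes in thoracic motor neurons, had the smallest rise of the 5. It read 8.21 and 8.19 before RA, 8.87 and 8.85 after 3 days in RA and 9.36 and 9.28 after 4 days. The rise was 1.12 (SE 0.05, 95% interval 0.99 to 1.24, adjusted p = 2.8e-06, limma), a 2.17-fold change, and here too the days did not overlap.

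The 5′ genes did not rise. Hoxc10, a lumbar gene, read 8.01 and 7.71 before RA, 7.40 and 7.02 after 3 days in RA and 7.69 and 7.25 after 4 days. The day 3 arrays lay below both of day 0, while the day 4 arrays overlapped those of day 3. On every day replicate 1 read higher than replicate 2, by 0.30 at day 0, 0.39 at day 3 and 0.44 at day 4, a spread wider than that of the 3′ genes. The change to day 4, -0.38 (SE 0.18, 95% interval -0.81 to 0.05, adjusted p = 0.12, limma), did not pass. With the replicate number as a block it did pass, at adjusted p = 0.0020.

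Hoxc11, a gene of the lumbar and sacral levels, read 6.25 and 5.83 before RA, 5.60 and 5.60 after 3 days in RA and 5.75 and 5.60 after 4 days. Its mean over the 6 arrays was under 6 and its SD under 0.3, the study's limits for undetectable genes, which were applied here over all arrays. The change of -0.37 to day 4 passed narrowly (SE 0.13, adjusted p = 0.048, limma). It was -0.16 without day 0 replicate 1, which stood above the other day 0 array, and no longer passed then (adjusted p = 0.19). It did not pass without any 1 array of day 3 or day 4 either (0.071 to 0.21).

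Hoxc12, expressed late and at the tail end, read 6.40 and 6.29 before RA, 5.55 and 5.66 after 3 days in RA and 5.64 and 5.84 after 4 days. Both later days lay below day 0, and the change to day 4 was -0.60 (SE 0.08, 95% interval -0.80 to -0.41, adjusted p = 6.0e-04, limma). Its mean over the arrays, 5.90, was also under 6.

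Hoxc13, the most 5′ gene, read 5.97 and 5.90 before RA, 5.23 and 5.41 after 3 days in RA and 5.51 and 5.62 after 4 days. The change to day 4 was -0.37 (SE 0.08, 95% interval -0.55 to -0.19, adjusted p = 0.0053, limma), again with no overlap between day 0 and the later days. Like Hoxc11 it lay under the study's limits for detection, so its fall was measured within signals those limits treat as undetectable.

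At day 3 the same 5 genes were already higher and all 4 of the 5′ genes were called lower, against 23.8% of all genes called higher and 28.1% called lower. The median log2 change was 0.66 over the members and -0.05 over all genes. The rises at day 3 were 3.17 for Hoxc4, 4.98 for Hoxc5, 2.11 for Hoxc6, 1.54 for Hoxc8 and 0.66 for Hoxc9. The falls were 0.65 for Hoxc10 (adjusted p = 0.021), 0.44 for Hoxc11 (0.024), 0.74 for Hoxc12 (2.2e-04) and 0.61 for Hoxc13 (4.2e-04), all by limma. The calls of Hoxc10 and Hoxc11 rested on single arrays. Without day 0 replicate 1 both were lost (adjusted p = 0.12 and 0.068), and so they were without day 3 replicate 2 (0.12 and 0.081). Hoxc11 also lost its call without day 3 replicate 1 (0.083).

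Most of the day 4 rise of the 3′ genes was present at day 3, and the share was lower from Hoxc6 to Hoxc9. The share of the day 4 change present at day 3, on the log2 scale, was 88.1% for Hoxc4, 94.5% for Hoxc5, 76.9% for Hoxc6, 71.5% for Hoxc8 and 59.1% for Hoxc9. Over the choices of arrays for days 3 and 4 and for day 0, it ran from 86.8% to 89.3% for Hoxc4 and from 56.2% to 62.2% for Hoxc9. Both changes in each share use the same day 0 arrays, and the shares are a description with no test.

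From day 3 to day 4 the members' changes were small. The 5 risers were called higher, and none of the 4 others was called either way. Of all genes, 15.8% were called higher and 12.2% lower. The rises were 0.43 for Hoxc4 (adjusted p = 0.013), 0.29 for Hoxc5 (0.0080), 0.64 for Hoxc6 (0.0013), 0.61 for Hoxc8 (0.0013) and 0.46 for Hoxc9 (0.0016), by limma. Hoxc10 to Hoxc13 had values of 0.26, 0.07, 0.14 and 0.24, with adjusted p of 0.33, 0.71, 0.27 and 0.059. The calls of Hoxc4 and Hoxc5 were lost without day 3 replicate 1 (adjusted p = 0.074 and 0.054), which left 3 members higher, and that of Hoxc4 also without either day 4 array (0.058 and 0.065).

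**Figure D2:**
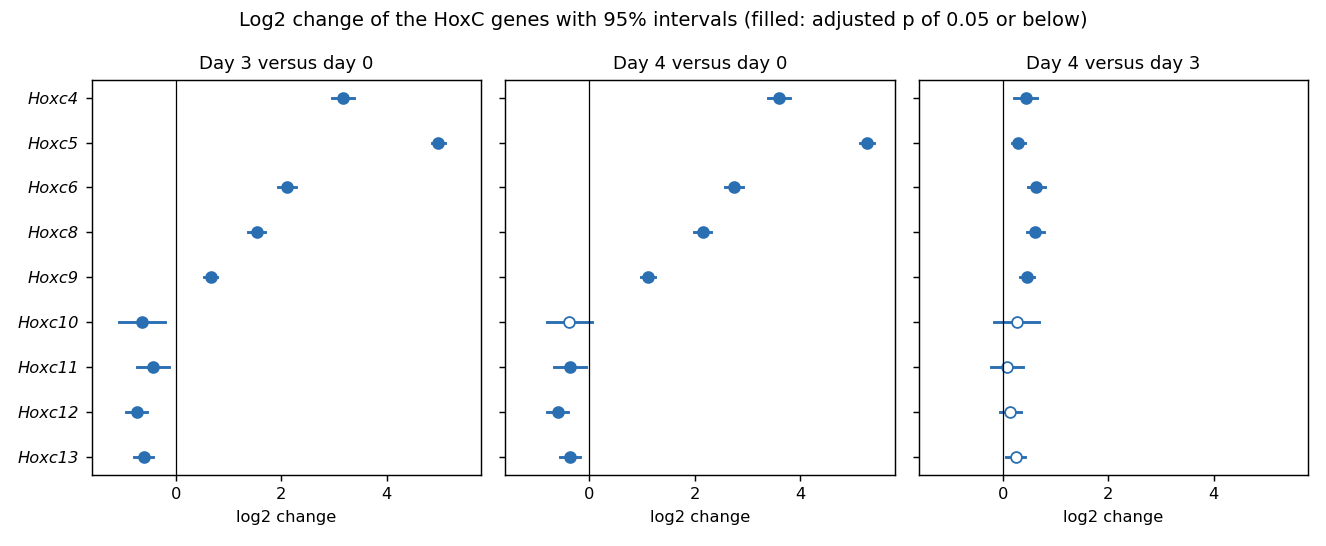
Log2 change (horizontal axis) of each HoxC gene, listed from the 3′ to the 5′ end, in the 3 comparisons, with the 95% interval of the moderated fit as a line; filled circles passed at an adjusted p of 0.05 or below and open circles did not. The changes to day 4 run from 5.27 for Hoxc5 to -0.60 for Hoxc12, and the changes from day 3 to day 4 lie between 0.07 and 0.64.

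Whether adjacent genes changed by different amounts was tested on the difference between the 2 genes within each array. These differences were added as further rows to the table of all genes, which gave 19965 rows over which p was adjusted. From day 0 to day 4, 6 of the 8 adjacent pairs differed. Hoxc4 rose less than Hoxc5 by 1.67 (95% interval 1.49 to 1.86 for the size), so the highest rise was not at the very 3′ end. Hoxc5 rose more than Hoxc6 by 2.53, Hoxc6 more than Hoxc8 by 0.59, and Hoxc8 more than Hoxc9 by 1.04. The step between Hoxc9 and Hoxc10, where the sign turned, was 1.501 (95% interval 1.11 to 1.89, adjusted p = 1.8e-04, limma). Along the 5′ part, Hoxc10 and Hoxc11 differed by -0.02 (95% interval -0.35 to 0.32) and Hoxc11 and Hoxc12 by 0.24 (-0.08 to 0.56), neither of which passed. The latter was 0.41 without day 4 replicate 2 and then passed (adjusted p = 0.049). The changes of Hoxc12 and Hoxc13 differed by -0.24 (adjusted p = 0.012), a call that needed day 0 replicate 1 (0.064 in its absence) and day 4 replicate 1 (0.071). Hoxc11 and Hoxc13 lay under the detection limits given above, and RMA compresses such dim signals, so sizes of differences that involve them are uncertain here and against paralogues.

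At day 3, 5 of the 8 adjacent pairs differed in their change from day 0, those from Hoxc4 and Hoxc5 through to Hoxc9 and Hoxc10. From day 3 to day 4 it was 1 of 8, Hoxc5 rising less than Hoxc6 by 0.35 (95% interval 0.17 to 0.52 for the size, adjusted p = 0.014, limma).

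Spearman's rho between paralogue number and log2 change to day 4 was -0.90 over the 9 HoxC genes. Over the genes measured in the same groups, 4 to 13, it was -0.95 for 8 HoxA genes, -0.54 for 6 HoxB genes and -0.75 for 7 HoxD genes, so it was negative in each cluster. With groups 1 to 3 added, which HoxC lacks, it was -0.88 over 10 HoxA genes, -0.12 over 9 HoxB genes and -0.28 over 9 HoxD genes. From day 3 to day 4, over groups 4 to 13, it was -0.68 for HoxC, -0.05 for HoxA, 0.60 for HoxB and 0.75 for HoxD. Genes of a cluster share the arrays and the surrounding chromatin, so these are descriptions with no p.

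**Figure D3:**
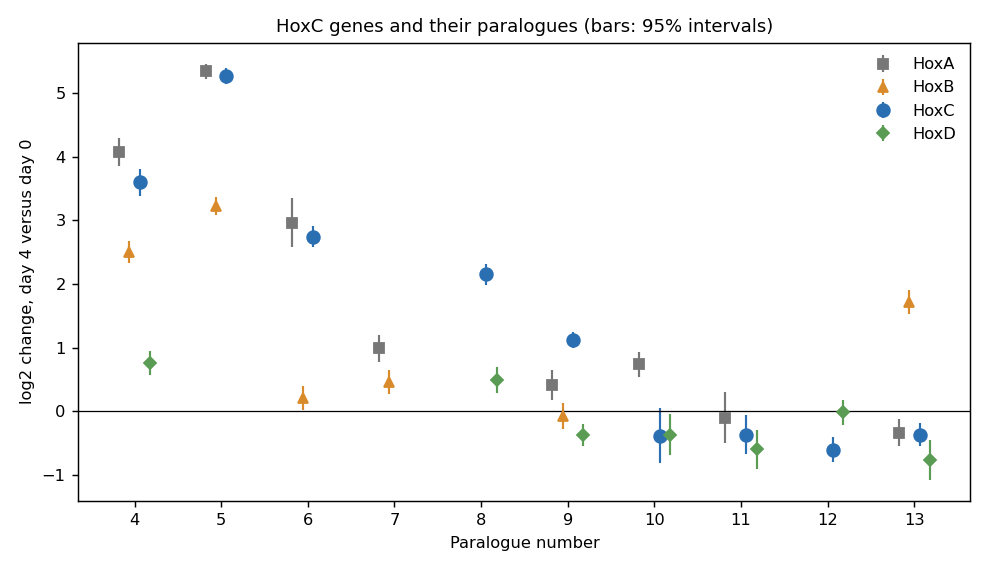
Log2 change from day 0 to day 4 (vertical axis) against paralogue number (horizontal axis) for the measured genes numbered 4 to 13 of the 4 Hox clusters, with 95% intervals. HoxC and HoxA run close together for groups 4 to 6, with Hoxc5 at 5.27 and Hoxa5 at 5.35, and Hoxc9 at 1.12 lies above the other genes of group 9.

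Against their paralogues, the HoxC genes were compared in 19 pairs by the same within-array test, and 13 pairs differed in their change to day 4. In 9 of these the HoxC change lay higher and in 4 the other. In groups 4 to 6 the nearest match was HoxA. Hoxc5 rose by 5.27 and Hoxa5 by 5.35, a difference of -0.08 with a 95% interval of -0.19 to 0.04 that did not pass. Hoxc6 and Hoxa6 differed by -0.22 (-0.56 to 0.12), which passed without day 0 replicate 1 (-0.44, adjusted p = 0.021). Hoxc4 rose less than Hoxa4 by 0.48 (adjusted p = 0.037, limma), and that call was lost without any 1 array other than day 0 replicate 1, at -0.20 without day 0 replicate 2.

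Against HoxB and HoxD the HoxC genes of groups 4 to 9 rose more in every pair measured. Hoxc4 exceeded Hoxb4 by 1.10 and Hoxd4 by 2.84. Hoxc5 exceeded Hoxb5 by 2.05, and Hoxc6 exceeded Hoxb6 by 2.54, the latter gene having changed by 0.21 (adjusted p = 0.068). Hoxc8 exceeded Hoxd8 by 1.66, while Hoxb8 shares its probe set with another symbol and was not compared.

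Hoxc9 was the group 9 gene with the highest rise, above Hoxa9 by 0.70 (95% interval 0.48 to 0.91, adjusted p = 4.3e-04), Hoxb9 by 1.19 and Hoxd9 by 1.49, the last of which fell by 0.38. In groups 10 to 13 the picture changed. Hoxa10 rose by 0.74 and lay above Hoxc10 by 1.12 (adjusted p = 1.7e-04), whereas Hoxc10 and Hoxd10 differed by -0.02 (95% interval -0.25 to 0.21). Hoxc11 passed against neither Hoxa11 (-0.26, adjusted p = 0.063) nor Hoxd11 (0.23, 0.13). Without either day 3 array both passed (0.010 and 0.031), with the differences at -0.26 and 0.23.

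Hoxc12 and Hoxd12 differed by -0.59 (95% interval -0.89 to -0.29). Hoxd12, with a mean of 5.50 and an SD of 0.16 over the 6 arrays, lay under the study's limits for detection. The size of this difference is therefore uncertain. Hoxc13 differed by -0.03 from Hoxa13 (95% interval -0.35 to 0.29), lay 2.09 below Hoxb13, which rose by 1.72, and lay 0.40 above Hoxd13, which fell by 0.77. Leaving out day 0 replicate 1 ended the call against Hoxd13 (0.21, adjusted p = 0.084), and so did leaving out day 4 replicate 2 (0.33, adjusted p = 0.13). Between day 3 and day 4, 7 of the 19 pairs differed. Hoxc4 gained 1.32 on Hoxd4, which fell by 0.89, and 0.64 on Hoxb4. Hoxc8 gained 0.85 on Hoxd8, and Hoxc9 gained 0.65 on Hoxd9 and 0.48 on Hoxa9. Hoxc6 gained 0.38 on Hoxb6. The pair that went the other way was Hoxc13 and Hoxb13, at -0.52 (adjusted p = 0.0020).

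For each of the 5 members that rose by at least 1, the genes of most like course were sought among 16995 genes. This set was chosen by symbol alone, without an intensity limit. It left out predicted genes, genes named after clones, receptors for odours and pheromones, and short RNAs. Likeness was the root mean square difference of the 6 array values after each gene's day 0 mean was subtracted. Nearest to Hoxc5 were Dhrs3, an RA-induced enzyme that turns retinal back into retinol (0.03), the extracellular matrix gene Ecm1 (0.06) and its paralogue Hoxa5 (0.08). Hoxc4 was nearest to the arginine methyltransferase gene Prmt8 (0.12), the cholesterol exporter gene Abca1 (0.15) and Tshz3 (0.15). Hoxc6 was nearest to Car11 (0.07), Hoxc8 to Egflam (0.06) and Hoxc9 to Cd302 (0.04). With 2 arrays a day, these distances are a description with no test, and the genes within such a distance were not counted.

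Both microRNA genes had probe sets of their own. The probe set of Mir615 read 7.43 and 7.39 before RA, 7.89 and 7.77 after 3 days in RA and 7.85 and 7.90 after 4 days, a rise of 0.46 (adjusted p = 5.0e-04, limma) beside 5.27 for Hoxc5, in which it lies. The difference between these changes was not tested. Mir196a-2 was at 4.91 and 5.10 at day 0 and 4.93 and 5.19 at day 4, and its value of 0.05 did not pass (adjusted p = 0.71). Its mean of 4.95 and SD of 0.16 over all arrays lay under the study's limits for detection. These probe sets read precursor or host RNA and not the mature sequences shown above.

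Of 13 noncoding or flanking genes measured at the locus, 5 were higher at day 4, 3 lower and 5 not called, with a median of 0.12. Of all genes 25.9% were higher and 25.6% lower, and the lists that follow are read against the same shares. The 3 lower genes are near that share. Smug1, a uracil-DNA glycosylase of base excision repair and the nearest protein-coding gene beyond Hoxc4, read 7.53 and 7.34 before RA, 8.95 and 8.92 after 3 days in RA and 9.45 and 9.40 after 4 days. It rose by 1.99 (adjusted p = 8.0e-07, limma). Calcoco1, the nearest protein-coding gene beyond Hoxc13 and a transcriptional coactivator, rose by 1.11, while its HoxC neighbour Hoxc13 fell. Itga5, a fibronectin receptor subunit, fell by 0.84, and Cbx5, which encodes HP1 alpha, changed by 0.11 (adjusted p = 0.13).

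HoxC proteins bind DNA with Pbx, Meis and Pknox cofactors. Of 8 cofactor genes measured, 7 were higher at day 4 and 1 lower, with a median of 0.82. Meis1 rose by 5.12 (6.44 and 6.56 at day 0, 11.60 and 11.63 at day 4), Meis2 by 3.87 and Pknox2 by 1.38. The lower gene was Pbx4, at -0.22 (adjusted p = 0.014).

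Of 22 genes of RA signalling and other inputs to Hox clusters, 11 were higher at day 4, 8 lower and 3 not called, with a median of 0.21, against 25.9% and 25.6% of all genes higher and lower. Rarb, an RA receptor and RA target, rose by 5.89, and Dhrs3 by 5.27. Cdx2, a caudal factor that binds along Hox clusters, was at 11.42 and 11.26 at day 0 and 6.52 and 6.65 at day 4, and fell by 4.75 (adjusted p = 5.7e-08, limma). Its relative Cdx1 was at -0.08 (adjusted p = 0.44) and the RA-degrading enzyme gene Cyp26c1 at -0.08 (0.44). The related genes Cyp26a1 and Cyp26b1 did change, in opposite directions. Cyp26a1 fell by 2.32 (adjusted p = 6.8e-07, limma) and Cyp26b1 rose by 3.16 (1.5e-06).

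Of 23 measured chromatin regulators of Hox clusters, mostly of the Polycomb and Trithorax groups, 7 were higher at day 4, 12 lower and 4 not called, with a median of -0.19. Bmi1 rose by 1.29 and Cbx8 by 1.11, and Cbx7, the Polycomb reader most used in ES cells, fell by 0.96. Ezh2, which methylates histone H3 at Polycomb targets, was at -0.05 (adjusted p = 0.45), and the insulator protein gene Ctcf at -0.01 (0.92). The share called lower lay above that of all genes and the share called higher was near it.

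Of 17 genes known to act with or after HoxC proteins in motor neurons, limbs and hair, 4 were higher at day 4, 6 lower and 7 not called, with a median of -0.07. The higher genes are near the 25.9% of all genes called higher, and 25.6% of all genes were lower. Foxp1, the partner of Hox proteins in limb motor neurons, rose by 2.75 and the adhesion gene Ncam1 by 2.40, while Msx2 fell by 2.82. The motor neuron genes Mnx1 (0.08, adjusted p = 0.58) and Chat (-0.08, 0.44) did not pass. Both lay under the study's limits for detection, with means of 5.46 and 5.45 and SDs of 0.13 and 0.12 over all arrays.

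Cell type markers moved over the same days, and their part in the HoxC changes was not tested. Of 10 pluripotency markers 9 fell by day 4. Pou5f1, the core factor of that state, fell by 4.09. Their summed linear intensity went from between 7250 and 7446 at day 0 to between 1081 and 1297 at day 4, so the EBs labelled ES cells had lost most of that signal. Of 12 lateral mesoderm and mesenchyme markers 9 rose and 3 fell, with sums of 13671 to 13747 at day 0 and 14768 to 15032 at day 4. These sums hide large changes of single markers in both directions. Hand1 fell by 5.02, from a mean of 12.30 to 7.28, while Osr1 rose by 3.90 and Tbx5 by 3.77. Of 14 neural progenitor markers 3 rose and 2 fell, of 12 neuron markers 3 rose and 5 fell, of 12 paraxial mesoderm markers 4 rose and 3 fell, and of 5 keratinocyte markers 3 rose. With 25.9% of all genes higher and 25.6% lower, the neural progenitor counts and the number of neuron markers that rose are at or below the share of all genes. The same holds for the numbers of paraxial mesoderm markers and of lateral mesoderm and mesenchyme markers that fell. Sums at day 0 and day 4 were 3430 to 3516 and 2797 to 2840 for neural progenitors, 3324 to 3457 and 2998 to 3287 for neurons, 1859 to 1969 and 3588 to 3630 for paraxial mesoderm, and 376 to 388 and 465 to 470 for keratinocytes. The higher paraxial mesoderm sum rests on Foxc2, which rose by 4.91 from a mean of 6.28 to 11.19, while Msgn1 fell by 2.52. Of 8 blood markers 3 rose by day 4, all of them globins, with Hbb-bh1 at 0.68, Hbb-y at 4.25 and Hba-x at 4.54, and 4 fell, the blood transcription factor genes Tal1 (-1.66), Gata1 (-1.01), Runx1 (-0.63) and Spi1 (-0.58). The sums for blood were 3087 to 3359 at day 0, 20670 to 23283 at day 3 and 6648 to 7600 at day 4. The 5 rising HoxC genes lay higher at day 4 than at day 3, and a link between their course and that of the blood markers was not tested.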

How the data were processed

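The authors deposited log2 intensities from Affymetrix Mouse Gene 1.0 ST arrays, normalised by RMA in Partek per the labels. For the arrays, neither a software version nor a genome build is given in the sources used here. RMA brings the single probes of all arrays to 1 distribution and compresses dim signals, so folds are relative to other transcripts and small for dim genes. The medians over all probe sets still differed, from 6.69 on day 4 replicate 1 to 6.85 on day 3 replicate 1. Of 35557 probe sets, 21789 carried 1 gene symbol in the platform annotation, and the brightest per gene was kept, which gave 19938 genes. Days were compared by limma 3.58.1 under R 4.3.3 (two-sided tests from lmFit and eBayes), all 6 arrays in 1 fit, and p-values were adjusted by the Benjamini-Hochberg method over all genes. Arrays have no read depth, so their number limits the precision. The labels do not say that the 2 arrays of a day came from separate cultures, and p-values then measure only the spread between these samples. For its sequenced RNA the study states that the EB procedure was done again to give 2 biological replicates of day 0 and day 4. It adds that RNA of day 3 went to arrays only, but does not say which preparations the arrays used. Replicate arrays correlated at 0.999 across genes. Sequences and gene order came from RefSeq tables. The HoxC genes and the lists were chosen with earlier results of these data known. Each pathway list was described by its 3 called members of largest change and at most 2 uncalled ones. Pou5f1, Hand1, Osr1, Tbx5, Foxc2, Msgn1, the blood markers, Pbx4, Cyp26a1, Cyp26b1, Mir615 and the flanking positions were named after their values were seen. Alternatives were the replicate number as a block, other centring and normalization, a filter on dim genes, an intensity trend, fewer arrays, other probe set rules and each array left out. Scripts were tested on simulated data.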

Additional observations from a re-analysis of the deposited data

How the results depend on the processing

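The rises of Hoxc4, Hoxc5, Hoxc6, Hoxc8 and Hoxc9 from day 0, and the falls of Hoxc12 and Hoxc13, kept their direction and their call in every alternative run in which the gene was tested. The numbers of differing pairs stayed within 1.5 times, at 17 to 21 of 27 for day 4 versus day 0. Whether same-numbered arrays came from the same culture is not given by the labels. Their deviations correlated at 0.034, 0.058 and 0.083 across genes, which shows no large shared shift but cannot decide this. With the replicate block, Hoxc10 was called lower at day 4 versus day 0 (-0.38, adjusted p = 0.0020) and higher at day 4 versus day 3 (0.26, adjusted p = 0.024), and the block changed no other call of a single HoxC gene; at day 4 it also called Hoxc11 apart from Hoxa11 (adjusted p = 0.040) and from Hoxc12 (0.037). The fall of Hoxc11 to day 4 was not called with centring on all probe sets (-0.26), with cyclic loess (-0.33), with the 4 arrays of the 2 days (-0.37) or with all probe sets fitted (-0.37), nor that to day 3 with cyclic loess (-0.38) or all probe sets (-0.44), where Hoxc10 was not called either (-0.65). Centring on the median of the tested genes, added after seeing the data, put Hoxc10 at -0.53 and called it lower. It moved the median gene at day 4 versus day 0 to -0.15, and centring on all probe sets moved it to 0.11, so the sign of changes of about that size is not settled. For day 4 versus day 3, centring on all probe sets called Hoxc12 (0.27) and Hoxc13 (0.37) higher, and 8829 genes higher against 1381 lower in place of 3156 and 2437. Centring on tested genes gave 8521 lower genes at day 4 and 8495 at day 3 against day 0, where 5106 and 5596 were called. Fitting all probe sets gave 7993 lower at day 4 versus day 0 and 4637 at day 4 versus day 3. With only genes of mean 6 or more, HoxC genes called lower were 0 at day 4 and 1 at day 3, because Hoxc11, Hoxc12 and Hoxc13 were not tested; with all probe sets 2 were lower at day 3.

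Leaving out each array in turn, the change to day 4 ran from -0.61 to -0.16 for Hoxc10, called without day 4 replicate 1, and from -0.58 to -0.16 for Hoxc11. To day 3 it ran from -0.84 to -0.45 for Hoxc10 and from -0.65 to -0.23 for Hoxc11, with 2 to 4 HoxC genes lower. From day 3 to day 4 it ran from 0.40 to 0.45 for Hoxc4, 0.27 to 0.30 for Hoxc5, -0.0015 to 0.15 for Hoxc11, and 0.15 to 0.33 for Hoxc13, called without day 3 replicate 2, with 3 to 6 HoxC genes higher. All genes called there ran from 1355 to 2998 higher and 1370 to 2278 lower. Uncalled differences that changed sign ran from -0.16 to 0.12 for Hoxc10 and Hoxd10, -0.13 to 0.068 for Hoxc13 and Hoxa13, and -0.16 to 0.13 for Hoxc10 and Hoxc11. A single left array is assumed to vary like the others.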
